A study of Homo sapiens with 30 samples.

Results

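The genes described here build, turn over and anchor the actin cytoskeleton: actin itself, the proteins that bind, branch, cap and crosslink it, the GTPases, kinases and scaffolds that direct it, and the proteins of focal adhesions. They were chosen by name, as a list of 44 genes, and every probe set whose platform gene symbol was exactly 1 of them was taken. Of the 44 genes, 41 had such a probe set. They had 79 probe sets among 22277 on the array, of which 76 were tested and 3 are the array's control probe sets for ACTB, given as levels only. Of the 41 genes, 23 had several tested probe sets. ACTG1, the cytoplasmic gamma actin, appeared only on 8 probe sets that the annotation assigns to ACTG1 and ACTB together, so no value is given for it. ACTR2 and FLNA are not analysed here.

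Actin monomers assemble into filaments that push the membrane forward, carry contractile force and hold epithelial cells to each other and to the matrix. The Arp2/3 complex starts branches when N-WASP (WASL) or WAVE proteins switch it on, formins build straight filaments, and capping proteins and cofilin limit and sever them. RHOA, RHOB, RHOC, RAC1 and CDC42 direct these machines, ROCK kinases and nonmuscle myosin make filaments contract, and actin monomers feed back on transcription through the factor SRF. In polarised gut epithelium, filaments fill the microvilli and form a contractile belt under the apical junctions.

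The cells were a co-culture of the human colorectal carcinoma line Caco-2 (75%), which differentiates into enterocyte-like cells, and the mucus-secreting line HT29-MTX (25%), grown for 14 days on porous inserts. Multi-walled carbon nanotubes (MWCNT) or titanium dioxide nanobelts (TiO2-NB) were added from above, at 10 µg/ml or 100 µg/ml, and the exposure lasted 1 h or 24 h. Control wells received fresh medium without particles, and each of the 10 groups had 3 arrays. All groups thus share both lines, the insert culture and the medium change, and no particle-free suspension served as a control. Flasks of each line were pooled before seeding, and nothing in the labels places the replicates in separate cultures, so p-values measure the spread between these arrays. The RNA is that of the whole insert, so a level cannot be assigned to 1 of the lines, and fewer cells of a type cannot be told apart from less RNA per cell.

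The values are log2 levels (RMA), n is 3 arrays in each group, and ± beside a log2 change is its standard error in limma's fit. A probe set is called where its adjusted p is under 0.05 over all 22215 tested probe sets. The median level of an array was between 6.45 and 6.49, and replicate arrays correlated at 0.997 or more. Of 16 enterocyte markers, 13 stood above the upper quartile of all levels, as did 5 of 10 mucus-cell markers. Those below it were ALPI, ANPEP and SLC2A2, and MUC2, MUC5AC, MUC5B, SPDEF and FCGBP. Above that quartile stood 0 of 14 fibroblast and smooth muscle markers, 0 of 10 leukocyte markers and 0 of 5 endothelial markers. In at least 1 of the 8 comparisons with control, 3 enterocyte, 3 mucus-cell, 1 fibroblast and smooth muscle, 3 leukocyte and 0 endothelial markers were called. The share of all probe sets so called was 17.9%. The summed log2 level of the enterocyte markers lay between 182.3 and 183.4 over the 10 groups, that of the mucus markers between 91.3 and 92.6, and that of the fibroblast and smooth muscle markers between 82.7 and 85.2. The 18S ribosomal RNA probe set stood above the control by 1.17 and 1.51 on the log2 scale with MWCNT at 10 and 100 µg/ml for 1 h, and by 0.84 and 0.80 with TiO2-NB. At 24 h these differences were 0.24, 0.06, 0.40 and 0.19 in the same order.

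The promoters of several members carry the CArG box, the site that SRF binds, and all those found in genes with a value here are shown. RefSeq start windows (GRCh38.p14, 250 bases before to 50 after the start) were given for 39 of the 44 members, 64 windows in all. No window was given for ACTB, ARPC1B, MYL9, RAC1 or WASF2, so these were not searched. A CArG box, searched on both strands, lay in 7 windows of 7 genes (ACTG1, ACTN1, CNN2, FLNA, ROCK2, SRF and TPM4), or 10.9% of member windows, against 1.29% of all 35116 windows. Each stretch below is 100 bases long and lies upstream of 1 start of the gene, not always next to it. It is read 5′ to 3′ on the gene's strand, with the box in capitals.
ACTN1, chr14:68977683-68977782, minus strand: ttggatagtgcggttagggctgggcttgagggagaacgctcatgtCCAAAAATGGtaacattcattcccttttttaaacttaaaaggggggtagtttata
CNN2, chr19:1026474-1026573, plus strand: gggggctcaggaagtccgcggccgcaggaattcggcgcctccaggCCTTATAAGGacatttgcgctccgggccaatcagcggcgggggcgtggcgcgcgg
ROCK2, chr2:11345456-11345555, minus strand: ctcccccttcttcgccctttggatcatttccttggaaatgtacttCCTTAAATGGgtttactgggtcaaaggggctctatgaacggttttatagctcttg
TPM4, chr19:16067320-16067419, plus strand: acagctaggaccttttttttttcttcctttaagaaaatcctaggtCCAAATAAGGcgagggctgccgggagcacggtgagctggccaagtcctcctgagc
SRF, chr6:43171169-43171268, plus strand: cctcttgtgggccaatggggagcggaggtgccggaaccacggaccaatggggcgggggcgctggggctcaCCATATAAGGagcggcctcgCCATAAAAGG
The stretches of ACTN1, CNN2, ROCK2 and TPM4 hold 1 box each and that of SRF holds 2. ACTN1, ROCK2, SRF and TPM4 also had windows at other starts, and those held no box. A match describes these letters only. SRF was not called in any of the 8 comparisons with control.

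Most members differed little between groups. The difference between the highest and lowest of the 10 group means had a median of 0.20 over the members and 0.25 over all probe sets. The members also stood higher on the array, with a median level of 9.42 against 6.47 over all, and 59 of 76 lay above that median. Comparisons of members with all probe sets, here and below, were not matched for level. A few members varied far more. PHACTR2 (204048_s_at) spanned 1.97, WASL (205809_s_at) 1.80, RHOB 1.71, PHACTR2 (204049_s_at) 1.15 and CDC42 (214230_at) 1.12. That CDC42 probe set had a low mean level, 4.78. Against control, 17 member probe sets of 13 genes were called in at least 1 of the 8 comparisons (22.4% of 76, against 17.9% of all probe sets), and 59 were called in none. The 28 genes with no call include RHOA, RHOC, RAC1, CFL1, VASP, VCL, PXN, SRF, TPM1 and all Arp2/3 subunits measured except ARPC3.

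**Figure D1:**
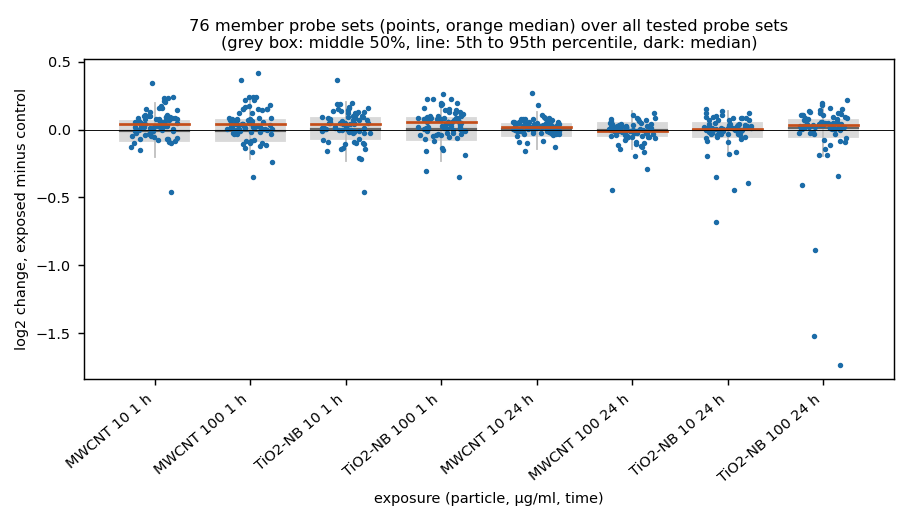
Log2 change of the 76 member probe sets (points) in the 8 comparisons with control, over the spread of all tested probe sets (grey box, the middle 50%, and line, the 5th to 95th percentile). Most points lie close to 0, and the low points with TiO2-NB at 100 µg/ml for 24 h are PHACTR2 at -1.73 and -0.89 and WASL at -1.52.

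Among the comparisons with control, the largest changes of any member came with TiO2-NB at 100 µg/ml for 24 h. PHACTR2, which binds actin monomers and protein phosphatase 1, and WASL, the N-WASP that links CDC42 to the Arp2/3 complex, fell on some of their probe sets. CDC42, a GTPase of filopodia and cell polarity, fell on 1 of its 4. The crosslinker ACTN1, on 1 of its probe sets, the monomer-binding protein PFN1 and the Arp2/3 subunit ARPC3 rose by small amounts. In all, 3 of 76 member probe sets rose, where 0.729% of all probe sets did, and 4 fell, where 2.8% of all did. Together they were 9.21% of the members, against 3.53% of all.

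PHACTR2 had 3 probe sets, and the first (204048_s_at) read 6.56, 6.28 and 5.77 with TiO2-NB at 100 µg/ml, against 7.92, 8.03 and 7.85 in the 24 h controls. The groups lay far apart, and the change was -1.73 ± 0.128, or 3.31-fold lower (adjusted p = 1.03e-08). The second (204049_s_at) read 5.78, 5.64 and 5.72, against 6.54, 6.77 and 6.49 in controls, again without overlap, and changed by -0.89 ± 0.101 (adjusted p = 1.96e-06). The remaining one (204047_s_at) read 4.78, 4.73 and 4.72, against 5.10, 4.97 and 5.19 in controls. Its arrays also lay below all controls, but its change of -0.34 ± 0.112 did not pass (adjusted p = 0.108). Over 0, 10 and 100 µg/ml of TiO2-NB the mean level of the first probe set was 7.93, 7.25 and 6.20.

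WASL had 2 probe sets, and they differed. On 205809_s_at the arrays read 5.46, 4.84 and 4.46 with TiO2-NB at 100 µg/ml, against 6.27, 6.54 and 6.51 in controls. The groups did not overlap, and the change was -1.52 ± 0.216, or 2.87-fold lower (adjusted p = 4.11e-05). On 205810_s_at the exposed arrays read 6.22, 6.07 and 6.11, against 6.11, 6.20 and 6.08 in controls, so these groups overlapped. The difference between the 2 probe sets of the same array averaged -1.21 ± 0.451 with TiO2-NB at 100 µg/ml and 0.31 ± 0.135 in controls (SD, n = 3 each). An exact permutation test of that difference gave p = 0.1, the smallest that 3 against 3 arrays allow.

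CDC42 was called on 1 of its 4 probe sets. That one, 208727_s_at, read 9.22, 9.01 and 8.92 with TiO2-NB at 100 µg/ml, against 9.42, 9.46 and 9.50 in controls, a change of -0.41 ± 0.0967 (adjusted p = 0.0119). These groups did not overlap. The probe set 208728_s_at read 10.43, 10.36 and 10.39, against 10.36, 10.35 and 10.34 in controls, where the groups touched. The 2 remaining probe sets, 210232_at and 214230_at, were not called either. The difference between 208727_s_at and 214230_at of the same array averaged 4.74 ± 0.478 with TiO2-NB at 100 µg/ml and 5.15 ± 0.0976 in controls (SD, n = 3 each), and an exact permutation test of it gave p = 0.4. On the exposed arrays 214230_at averaged 4.32 with an SD of 0.326, against an SD of 0.155 for 208727_s_at, which limits this test. The difference between 208727_s_at and 208728_s_at was not tested. Without TiO2-NB replicate 3 the adjusted p of 208727_s_at was 0.126, and without control replicate 3 or TiO2-NB replicate 2 it was 0.0596.

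The 3 rises were small, and each call depended on single arrays. ACTN1, alpha-actinin, which crosslinks filaments at adhesions, read 10.71, 10.71 and 10.74 on 208636_at with TiO2-NB at 100 µg/ml, against 10.58, 10.53 and 10.62 in controls. All exposed arrays lay above all controls, by 0.14 ± 0.0336 (adjusted p = 0.0108). Its other probe sets, 208637_x_at and 211160_x_at, were not called and did not rise. On 208637_x_at the exposed arrays read 9.12, 9.07 and 8.96, below all controls at 9.16, 9.15 and 9.18. On 211160_x_at the groups overlapped. Profilin (PFN1), which delivers monomers to growing ends, read 10.96, 10.94 and 10.94, against 10.70, 10.78 and 10.78 in controls, higher by 0.19 ± 0.0526 (adjusted p = 0.0373). ARPC3 read 12.12, 12.17 and 12.19, against 12.04, 12.02 and 11.97 in controls, higher by 0.15 ± 0.0418 (adjusted p = 0.0487). The groups did not overlap for either gene. The call of ACTN1 was lost without control replicate 2 (adjusted p = 0.101) or TiO2-NB replicate 3 (0.0808). That of PFN1 was lost without any 1 of the 6 arrays (adjusted p from 0.0681 to 0.191), and that of ARPC3 without any 1 of them except TiO2-NB replicate 1 (0.0643 to 0.247). The count of 7 fell to 4 without control replicate 2, control replicate 3 or TiO2-NB replicate 2, and to 3 without TiO2-NB replicate 3.

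Called or not, 25 of the 76 members (32.9%) had all 3 exposed arrays above all controls, against 13% of all probe sets. In 11 members (14.5%) all exposed arrays lay below all controls, against 9.48% of all. The median change of the members was 0.031, against 0.011 over all. ACTB, beta actin, read 13.45, 13.45 and 13.43 on 200801_x_at, against 13.36, 13.37 and 13.35 in controls, a difference of 0.08 ± 0.0326 that did not pass (adjusted p = 0.228). The array's control probe sets for ACTB stood 0.10 higher at the 3′ end, 0.13 in the middle and 0.13 at the 5′ end, so the ends differed little from each other.

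**Figure D2:**
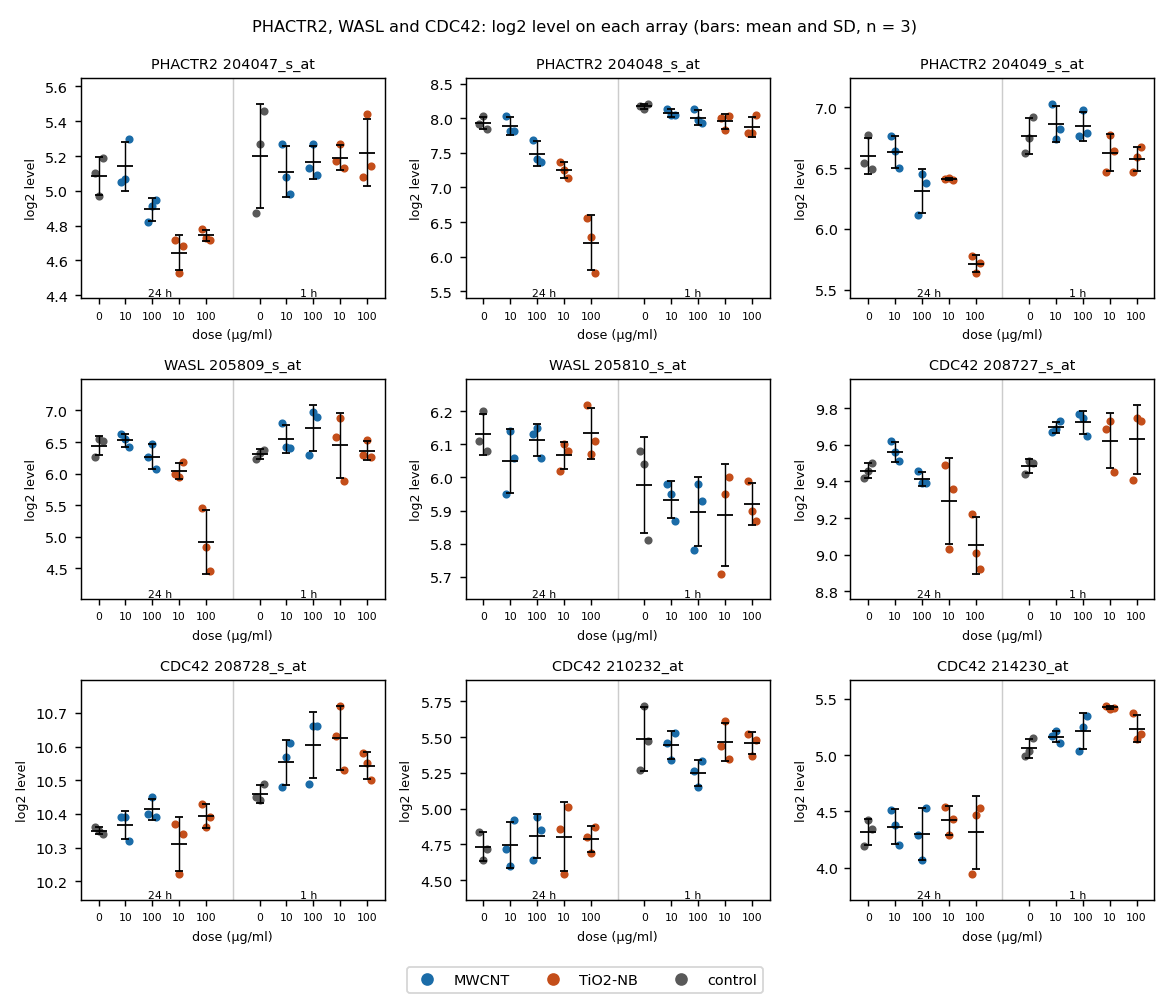
Log2 level on each array for the probe sets of PHACTR2 (3), WASL (2) and CDC42 (4), by dose of MWCNT (blue) and TiO2-NB (orange), with controls in grey, 24 h on the left and 1 h on the right of each panel. Bars show the mean and SD of 3 arrays. PHACTR2 204048_s_at, 204049_s_at and WASL 205809_s_at drop at 100 µg/ml TiO2-NB for 24 h, while WASL 205810_s_at does not.

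At 10 µg/ml TiO2-NB for 24 h, 1 of the 76 members was called, where 0.0585% of all probe sets were, 0.0225% as rises and 0.036% as falls. It was PHACTR2 (204048_s_at), at 7.37, 7.25 and 7.13 against 7.92, 8.03 and 7.85 in controls, a change of -0.68 ± 0.128 (adjusted p = 0.0347) without overlap. The call was lost without any 1 of the controls, TiO2-NB replicate 2 or TiO2-NB replicate 3 (adjusted p from 0.0921 to 0.251). On 204047_s_at PHACTR2 differed by -0.45 ± 0.112 without passing (adjusted p = 0.237). VCL, vinculin of focal adhesions, differed by -0.35 ± 0.129 on 200930_s_at (adjusted p = 0.515), and its second probe set 200931_s_at by 0.09.

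With MWCNT at 24 h no member passed limma's test at either dose, where 0.0045% and 0.009% of all probe sets were called at 10 and 100 µg/ml. At an unadjusted p under 0.05 there were 0 and 3 members (0% and 3.95%), against 4.29% and 5.56% of all. The 3 at 100 µg/ml were PHACTR2 on 204048_s_at (-0.44 ± 0.128, adjusted p = 0.724) and 204049_s_at (-0.29 ± 0.101, adjusted p = 0.826) and CAPZB, a capping protein, on 201949_x_at (0.12 ± 0.045, adjusted p = 0.892). PHACTR2 204048_s_at read 7.69, 7.41 and 7.37 with MWCNT, against 7.92, 8.03 and 7.85 in controls, so that its arrays too lay below all controls. The 4 comparisons with control at 24 h share the 24 h control arrays, and the 4 at 1 h share those of 1 h.

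At 1 h the members' changes were small, and most were positive. RHOB, a short-lived GTPase, was lower with each particle at 10 µg/ml, and single members among crosslinkers, myosin, IQGAP1 and zyxin rose. With MWCNT at 10 µg/ml, 1 of 76 members was called (1.32%), a fall, where 6.46% of all probe sets were called, 2.56% as rises and 3.9% as falls. With MWCNT at 100 µg/ml, 4 members were called (5.26%), all rises, where 7.78% of all were called, 3.51% as rises and 4.27% as falls. With TiO2-NB at 10 µg/ml, 2 members rose and 2 fell (5.26% together), where 7.84% of all were called, 2.61% as rises and 5.24% as falls. With TiO2-NB at 100 µg/ml, 4 members rose (5.26%) and none fell, where 8.43% of all were called, 2.65% as rises and 5.78% as falls. The share called in either direction was thus below that of all probe sets in each of these comparisons. At 100 µg/ml the share of rises was above that of all, but it rests on 4 probe sets with each particle. These belong to 4 genes with MWCNT and 3 with TiO2-NB. The share of members with a positive change was 68.4%, 72.4%, 64.5% and 71.1% in the same order, against 45.6%, 47%, 52.1% and 50.6% of all. Of the 76, 40 were positive in all 4 comparisons (52.6%, against 25.3% of all) and 12 negative in all 4 (15.8%, against 28%), but the 4 comparisons use the same control arrays. The 18S level was higher in these groups too. With it in the fit, fewer members were called with MWCNT at 100 µg/ml and with TiO2-NB at both doses, as given below. Its part in the share of positive changes was not tested.

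RHOB (212099_at) read 9.72, 9.88 and 9.73 with MWCNT at 10 µg/ml, against 10.09, 10.55 and 10.07 in the 1 h controls. With TiO2-NB at 10 µg/ml it read 9.79, 10.05 and 9.49. Exposed and control arrays did not overlap in either case, and control replicate 2 stood high among the controls. The changes were -0.46 ± 0.115 with MWCNT (adjusted p = 0.0166) and -0.46 ± 0.115 with TiO2-NB (adjusted p = 0.0129). At 100 µg/ml RHOB changed by -0.35 ± 0.115 with each particle and did not pass (adjusted p = 0.0614 with MWCNT and 0.0644 with TiO2-NB). Without control replicate 2 the change at 10 µg/ml was -0.30 with each particle (adjusted p = 0.137 with MWCNT, 0.118 with TiO2-NB). The call with MWCNT was also lost without MWCNT replicate 1 (0.0771) or replicate 3 (0.0591), and that with TiO2-NB without TiO2-NB replicate 3 (0.113). For MWCNT at 10 µg/ml the count of members called was 3, 0 and 2 without control replicate 1, 2 and 3, and 0, 4 and 0 without MWCNT replicate 1, 2 and 3.

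With MWCNT at 100 µg/ml, 4 members rose and none fell. ACTN1 read 9.27, 9.42 and 9.34 on 208637_x_at, against 9.09, 9.15 and 9.13 in controls, and rose by 0.22 ± 0.0532 (adjusted p = 0.0113). MYH9, the heavy chain of nonmuscle myosin IIA, read 8.58, 8.57 and 8.45, against 8.30, 8.37 and 8.22 in controls, and rose by 0.24 ± 0.0608 (adjusted p = 0.0157). IQGAP1, a scaffold that binds CDC42 and RAC1, read 8.45, 8.46 and 8.43 on 210840_s_at, against 8.14, 8.25 and 8.28 in controls, and rose by 0.22 ± 0.0587 (adjusted p = 0.0217). The exposed arrays lay above all controls for these genes and for TAGLN2 (transgelin 2, an actin binder), at 10.62, 10.55 and 10.54 on 210978_s_at against 10.42, 10.46 and 10.31 in controls. TAGLN2 rose by 0.17 ± 0.0527 (adjusted p = 0.0425). The other probe sets of ACTN1, IQGAP1 and TAGLN2 were not called. With MWCNT and in controls, ACTN1 averaged 10.55 and 10.54 on 208636_at and 8.39 and 8.21 on 211160_x_at. IQGAP1 averaged 9.61 and 9.49 on 200791_s_at and 4.31 and 4.27 on 213446_s_at. TAGLN2 averaged 11.5 and 11.35 on 200916_at. Without MWCNT replicate 2 no member was called, with adjusted p = 0.0687 for ACTN1, 0.0627 for MYH9, 0.064 for IQGAP1 and 0.0731 for TAGLN2. The call of MYH9 was also lost without control replicate 3 (0.0796) or MWCNT replicate 1 (0.0549), that of IQGAP1 without control replicate 1 (0.104), and that of TAGLN2 without any 1 array except control replicate 2 (up to 0.195). With the 18S level of each array in the fit, ACTN1 changed by 0.03, MYH9 by 0.14, IQGAP1 by 0.20 and TAGLN2 by 0.14, and none was called.

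With TiO2-NB at 10 µg/ml for 1 h, IQGAP1 and CDC42 rose and ROCK1, a kinase that makes filaments contract, fell, beside RHOB. ROCK1 read 9.59, 9.62 and 9.57 on 213044_at, against 9.70, 9.85 and 9.87 in controls, a change of -0.21 ± 0.0637 (adjusted p = 0.0437) without overlap. IQGAP1 (210840_s_at) read 8.36, 8.53 and 8.37 and rose by 0.19 ± 0.0587 (adjusted p = 0.0447), and CDC42 (208728_s_at) read 10.63, 10.72 and 10.53, against 10.45, 10.44 and 10.49 in controls, and rose by 0.17 ± 0.0515 (adjusted p = 0.0453). No other probe set of ROCK1, IQGAP1 or CDC42 was called. With TiO2-NB and in controls, ROCK1 averaged 6.64 and 6.75 on 214578_s_at. IQGAP1 averaged 9.58 and 9.49 on 200791_s_at and 4.25 and 4.27 on 213446_s_at. CDC42 averaged 9.63 and 9.48 on 208727_s_at, 5.47 and 5.49 on 210232_at, and 5.42 and 5.06 on 214230_at. The call of IQGAP1 was lost without any 1 of the 6 arrays (adjusted p from 0.0512 to 0.217). The call of ROCK1 was lost without any 1 array except control replicate 1 (up to 0.164). That of CDC42 was lost without any 1 array except TiO2-NB replicate 3 (up to 0.213). The count of 4 was 0 and 1 without control replicate 2 and 3, and 1 and 2 without TiO2-NB replicate 1 and 2. With the 18S level in the fit, 1 member was called, and ROCK1, IQGAP1 and CDC42 changed by -0.16, 0.18 and 0.11.

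With TiO2-NB at 100 µg/ml for 1 h, the members that rose were the crosslinker ACTN4, zyxin (ZYX), which gathers at strained adhesions and stress fibres, and both probe sets of TAGLN2. ACTN4 read 9.57, 9.66 and 9.68, against 9.53, 9.40 and 9.31 in controls, and rose by 0.22 ± 0.0562 (adjusted p = 0.0135). ZYX read 6.60, 6.76 and 6.75 on 215706_x_at, against 6.55, 6.41 and 6.48 in controls, and rose by 0.22 ± 0.0573 (adjusted p = 0.0141). TAGLN2 rose by 0.20 ± 0.0527 on 210978_s_at (adjusted p = 0.0196) and by 0.20 ± 0.0566 on 200916_at (adjusted p = 0.0285). In each case the groups did not overlap, though control replicate 1 of ACTN4 and of ZYX lay close to the lowest exposed array. On its other probe set, 200808_s_at, ZYX averaged 6.11 against 5.93 in controls and was not called. The calls were lost without control replicate 3 for ACTN4 (0.104) and for TAGLN2 (0.132 and 0.18), and without control replicate 2 for ZYX (0.075). They were also lost without TiO2-NB replicate 2 (ACTN4 0.0581, ZYX 0.0815, TAGLN2 200916_at 0.0541), without replicate 3 (ACTN4 0.057, ZYX 0.0601) and without replicate 1 (TAGLN2 0.0961 and 0.168). The count of 4 members became 7 when control replicate 1 was left out. It became 2 on leaving out control replicate 3, and 1 on leaving out TiO2-NB replicate 2. With the 18S level in the fit, 1 member was called, with ACTN4 at 0.19 and TAGLN2 at 0.18 and 0.17.

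ACTB itself did not pass in any comparison with control. On 200801_x_at it read 13.52, 13.55 and 13.58 with TiO2-NB at 100 µg/ml for 1 h, against 13.45, 13.49 and 13.41 in controls, higher by 0.10 ± 0.0326 (adjusted p = 0.053). Over its 2 tested probe sets, all changes against control lay between 0.00 and 0.10. PFN1 differed by 0.16 ± 0.0526 with MWCNT at 10 µg/ml for 1 h (adjusted p = 0.0677).

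The next members are those of smallest p in their role that did not pass against control. TLN1, talin, which couples integrins to actin, read 6.44, 6.18 and 6.37 with MWCNT at 10 µg/ml for 1 h, against 6.19, 6.11 and 6.09 in controls, a difference of 0.20 ± 0.0655 (adjusted p = 0.0664). Here MWCNT replicate 2 lay below control replicate 1. The formin DIAPH1, which builds straight filaments, read 6.23, 6.28 and 6.04 on 215541_s_at with TiO2-NB at 100 µg/ml for 1 h, against 6.08, 5.88 and 5.92 in controls, a difference of 0.22 ± 0.075 (adjusted p = 0.0711). These groups overlapped by 1 array. Among the Arp2/3 subunits, ARPC2 on 213513_x_at came closest after ARPC3, at 11.41, 11.40 and 11.43 with MWCNT at 10 µg/ml for 1 h against 11.30, 11.33 and 11.32 in controls. Its difference of 0.10 ± 0.033 (adjusted p = 0.0851) came from groups that did not overlap. Cofilin (CFL1), which severs and disassembles filaments, read 13.14, 13.25 and 13.19 with TiO2-NB at 100 µg/ml for 1 h, against 13.12, 13.12 and 13.07 in controls, a difference of 0.09 ± 0.0327 (adjusted p = 0.106). The exposed arrays stood just above the controls. Tropomyosin 4 (TPM4), which runs along filaments, read 6.94, 7.07 and 6.85 on 212481_s_at with TiO2-NB at 10 µg/ml for 1 h, against 7.07, 7.07 and 7.16 in controls, a difference of -0.15 ± 0.0552 (adjusted p = 0.115), and the groups touched. SRF read 8.04, 7.86 and 7.88 on 202401_s_at with TiO2-NB at 100 µg/ml for 1 h, against 8.10, 8 and 8.12 in controls, a difference of -0.15 ± 0.0786 (adjusted p = 0.279) with overlap. The capping protein CAPZB read 10.31, 10.31 and 10.30 on 201949_x_at with MWCNT at 100 µg/ml for 24 h, against 10.20, 10.23 and 10.14 in controls, without overlap. CAPZA1, its partner subunit, was at 11.06, 11.04 and 10.99 with MWCNT at 10 µg/ml for 24 h, against 11.02, 10.98 and 10.93 in controls, a difference of 0.05 ± 0.0379 (adjusted p = 1), and these groups overlapped. Outside that choice, gelsolin (GSN), which severs filaments, differed by 0.34 ± 0.141 on 214040_s_at with MWCNT at 10 µg/ml for 1 h (adjusted p = 0.166).

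**Figure D3:**
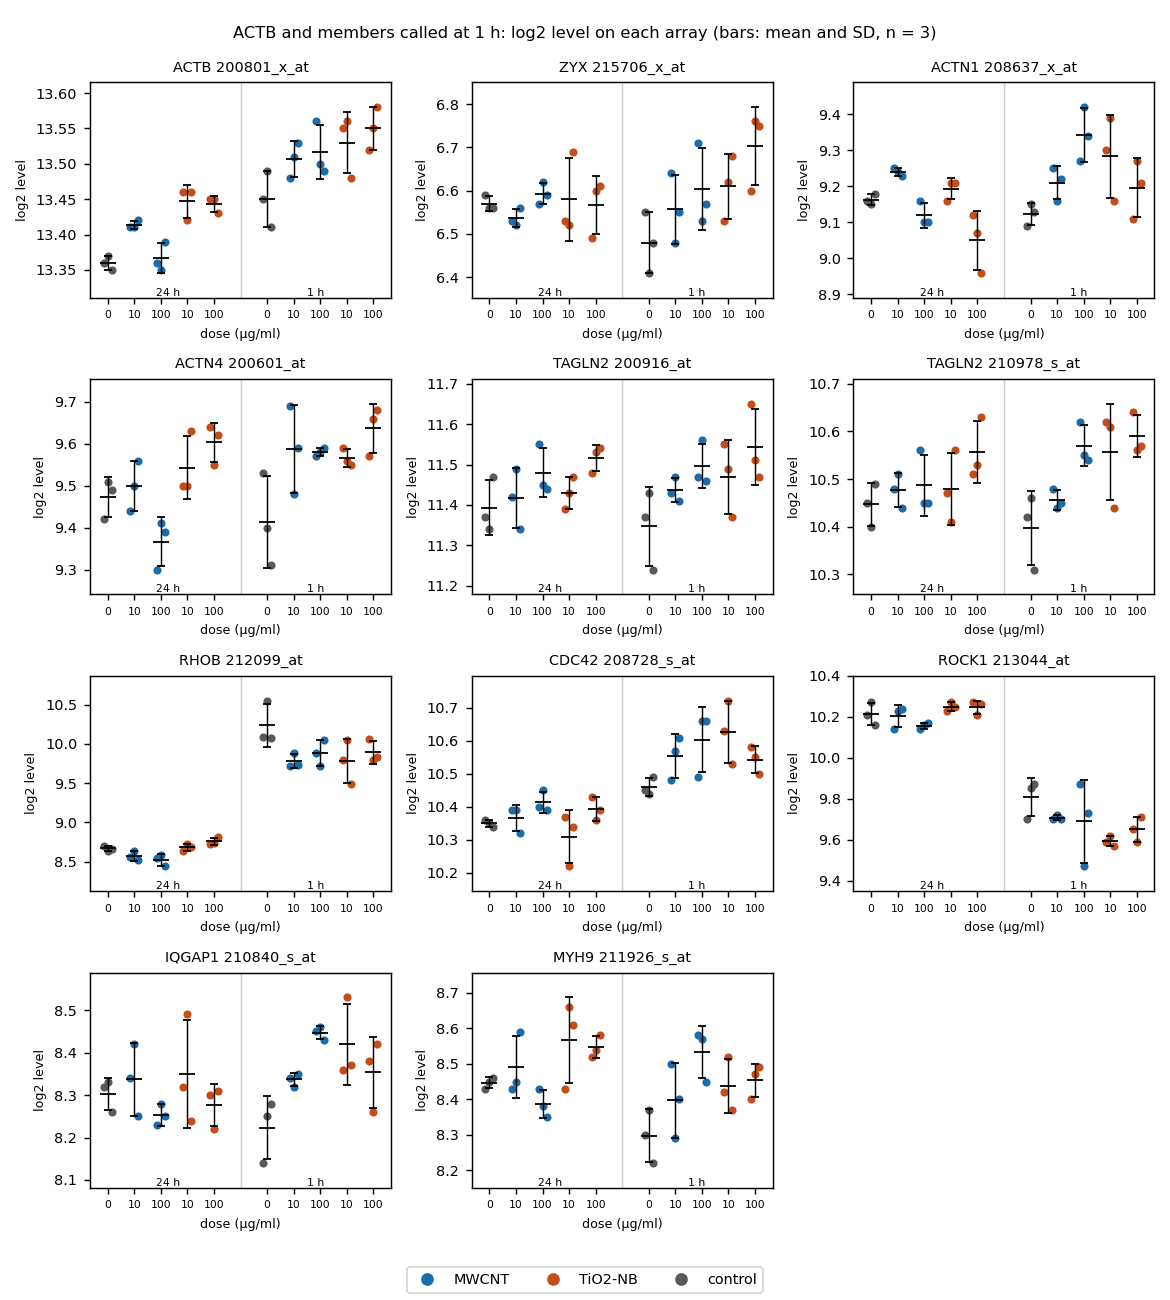
Log2 level on each array for ACTB and each member probe set called at 1 h, by dose, with MWCNT in blue, TiO2-NB in orange and controls in grey, and 24 h left of 1 h in each panel. Bars show the mean and SD of 3 arrays. RHOB lies near 8.67 in 24 h controls and 10.24 in 1 h controls, while the changes of the other members against the 1 h controls are a fraction of that.

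The dose comparisons, 100 against 10 µg/ml, called members only for TiO2-NB at 24 h. There 3 probe sets fell and none rose, 3.95% of the 76, where 1.83% of all were called, 0.126% as rises and 1.7% as falls. PHACTR2 changed by -1.05 ± 0.128 on 204048_s_at (adjusted p = 0.000102) and by -0.70 ± 0.101 on 204049_s_at (adjusted p = 0.00028), and WASL 205809_s_at by -1.12 ± 0.216 (adjusted p = 0.00361). The arrays of 100 µg/ml lay below those of 10 µg/ml in each. Without TiO2-NB replicate 3 of 100 µg/ml, the call of WASL was lost (-0.89, adjusted p = 0.0585) and 2 members were called. For MWCNT at both times and TiO2-NB at 1 h, limma called 0 members and 0% of all probe sets. At an unadjusted p under 0.05 there were 6 members for MWCNT at 1 h (7.89%, against 6.83% of all), 9 for MWCNT at 24 h (11.8%, against 6.65%), all lower at 100 µg/ml, and 0 for TiO2-NB at 1 h (against 6.42%).

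MWCNT and TiO2-NB differed at 100 µg/ml for 24 h in 6 member probe sets, 7.89% of the 76, where 2.88% of all were called. Of these members 4 were higher with MWCNT, as were 2.15% of all probe sets, and 2 were lower, as were 0.725% of all. PHACTR2 was higher with MWCNT by 1.29 ± 0.128 (204048_s_at, adjusted p = 2.26e-06) and 0.60 ± 0.101 (204049_s_at, adjusted p = 0.000553), and WASL 205809_s_at by 1.35 ± 0.216 (adjusted p = 0.000316). CDC42 208727_s_at was higher by 0.36 ± 0.0967 (adjusted p = 0.0384). ACTN4 and PFN1 were lower with MWCNT, with changes of -0.23 ± 0.0562 (adjusted p = 0.0177) and -0.21 ± 0.0526 (adjusted p = 0.0231). ACTN4 read 9.30, 9.41 and 9.39 with MWCNT, against 9.64, 9.55 and 9.62 with TiO2-NB. The arrays of the particles did not overlap in these members. Without TiO2-NB replicate 3 the count was 3. The call of CDC42 was lost without any 1 array except TiO2-NB replicate 1 (up to 0.265), that of PFN1 without any 1 except MWCNT replicate 1 (up to 0.155), and that of ACTN4 without MWCNT replicate 1 (0.121), TiO2-NB replicate 1 (0.0766) or TiO2-NB replicate 3 (0.0965). At the other 3 pairings of dose and time, limma called 0 members, where 0.0675% (10 µg/ml, 1 h), 0% (100 µg/ml, 1 h) and 0.0315% (10 µg/ml, 24 h) of all were called. At an unadjusted p under 0.05 there were 7, 3 and 6 members in the same order (9.21%, 3.95% and 7.89%), against 13.7%, 9.25% and 4.88% of all.

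The effect of 100 µg/ml at 24 h was set against that at 1 h in a test of the difference itself. For TiO2-NB, 4 members differed, 5.26% of the 76, where 5.84% of all did, 3.52% with a higher and 2.32% with a lower value at 24 h. They were PHACTR2 (-1.42 ± 0.181 on 204048_s_at, adjusted p = 4.48e-05, and -0.70 ± 0.143 on 204049_s_at, adjusted p = 0.0034), WASL 205809_s_at (-1.57 ± 0.306, adjusted p = 0.0023) and CDC42 208727_s_at (-0.56 ± 0.137, adjusted p = 0.0141). Each was lower at 24 h relative to its control. The CDC42 call was lost without TiO2-NB replicate 2 of 1 h (adjusted p = 0.0512) or TiO2-NB replicate 3 of 24 h (0.055). For MWCNT 0 members were called, where 2.71% of all were, with 11 at an unadjusted p under 0.05 (14.5%, against 16.2% of all). That count was 1 without control replicate 1 of 1 h or MWCNT replicate 1 of 1 h.

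The controls of the 2 times, both given fresh medium without particles, also differed. The 24 h controls had spent longer in that medium, so time and the medium change cannot be told apart. Of the 76 members, 4 were higher at 24 h, where 7.22% of all probe sets were, and 6 were lower, where 10.9% of all were. Together they were 13.2% of the members, against 18.1% of all. RHOB read 8.70, 8.64 and 8.66 at 24 h, against 10.09, 10.55 and 10.07 at 1 h, a change of -1.57 ± 0.115, or 2.97-fold lower (adjusted p = 6.09e-10). The groups lay well apart. ROCK1 rose on both probe sets, by 0.36 ± 0.0504 on 214578_s_at (adjusted p = 1.07e-05) and by 0.41 ± 0.0637 on 213044_at (adjusted p = 4.76e-05), and ROCK2 by 0.21 ± 0.0549 on 202762_at (adjusted p = 0.00776). CDC42 fell on 210232_at (-0.76 ± 0.113, adjusted p = 2.93e-05) and on 214230_at (-0.75 ± 0.124, adjusted p = 0.000109). Both stood low on the array, at mean levels of 5.1 and 4.78, where the median over all was 6.47. The other CDC42 probe sets, at mean levels of 9.49 and 10.46, were not called. They changed by -0.02 ± 0.0967 on 208727_s_at and -0.11 ± 0.0515 on 208728_s_at (adjusted p = 0.909 and 0.168). CNN2, a calponin that binds filaments, rose by 0.21 ± 0.0584 (adjusted p = 0.0143). TPM4 (212481_s_at, -0.17 ± 0.0552, adjusted p = 0.0343), TPM1 (210987_x_at, -0.12 ± 0.0389, adjusted p = 0.0302) and ACTB (213867_x_at, -0.10 ± 0.0335, adjusted p = 0.0414) fell slightly. Of the genes whose CArG box is shown above, CNN2 thus rose, ROCK2 rose on 1 of 2 probe sets, TPM4 fell on 1 of 2, and ACTN1 and SRF were not called. The call of CNN2 was lost without 1 h control replicate 1 or 3 or 24 h control replicate 1 (adjusted p up to 0.0589), and that of TPM4 without the same arrays or 24 h control replicate 2 (up to 0.173). That of TPM1 was lost without any 1 array except 1 h control replicate 1 (up to 0.0986), and that of ACTB without any 1 except 1 h control replicate 3 (up to 0.175). The count of 10 was 6 without 24 h control replicate 1.

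Probe sets of 1 gene often differed. Of the 23 genes with several, all of a gene's probe sets had the same sign in 14 and 15 genes with MWCNT at 10 and 100 µg/ml for 1 h, and in 11 and 13 with TiO2-NB. At 24 h the numbers were 12 and 9 with MWCNT and 11 and 9 with TiO2-NB. The widest range within a gene was 1.52 (WASL, TiO2-NB at 100 µg/ml for 24 h), and the median range there was 0.11. A value therefore belongs to its probe set, and which transcripts each probe set reads was not examined.

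**Figure D4:**
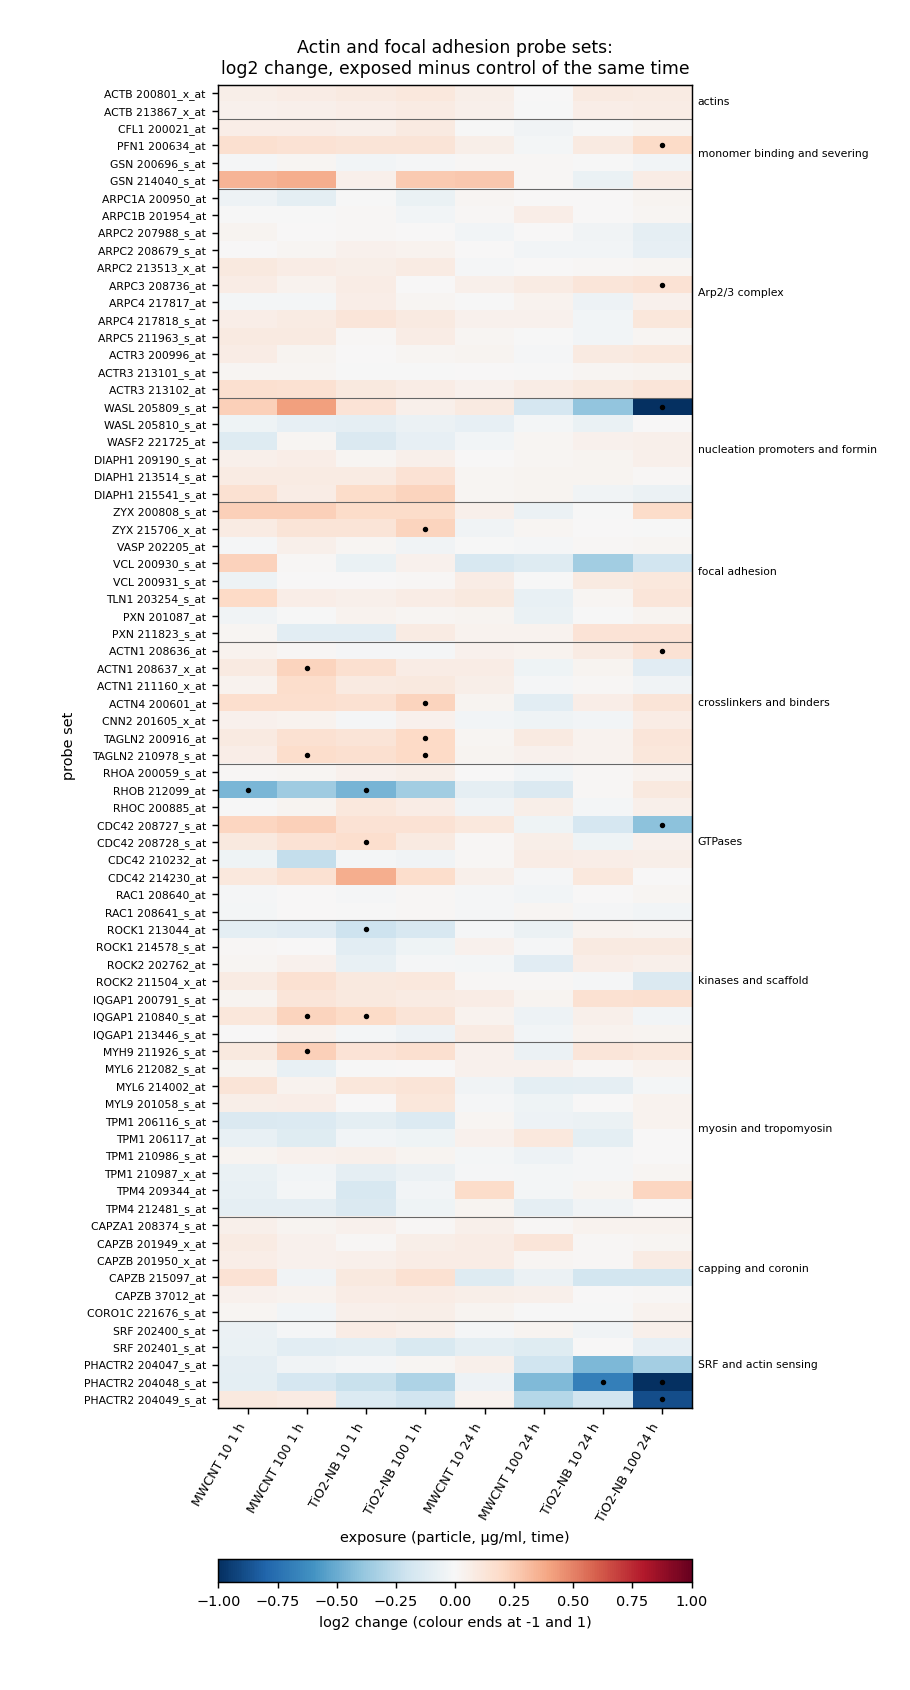
Log2 change of the 76 member probe sets (rows, grouped by role) in the 8 comparisons with control (columns), with blue for lower and red for higher in the exposed group and colour ending at -1 and 1. Dots mark calls. Dark blue cells stand in the PHACTR2 and WASL rows with TiO2-NB at 100 µg/ml for 24 h, and pale cells fill most of the rest.

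Another 151 genes of actin and adhesion biology, on 316 probe sets, were taken as a list of their own. With MWCNT for 1 h, 17 of these probe sets rose and 9 fell at the lower dose, and 22 rose and 11 fell at the higher. With TiO2-NB for 1 h, 12 rose and 17 fell at the lower dose, and 15 rose and 14 fell at the higher. In the order MWCNT at 10 and 100 µg/ml and TiO2-NB at 10 and 100 µg/ml, these calls were 8.23%, 10.4%, 9.18% and 9.18% of the list, beside the 6.46%, 7.78%, 7.84% and 8.43% of all probe sets given above. With MWCNT at 100 µg/ml for 1 h, 5 of 20 integrin probe sets, 6 of 46 of crosslinkers and bundlers and 3 of 29 of myosins and tropomyosins rose, and none of these fell. Of 69 probe sets of adhesion adaptors and kinases 4 rose and 3 fell, and of 36 of cofactors and targets of SRF 3 rose and 6 fell. Of 39 of filament turnover and 28 of nucleation, none rose and 1 each fell. CCN1, a matrix protein and target of SRF and YAP, fell on 201289_at with every exposure of 1 h. Its changes were -0.47 ± 0.0518 and -0.49 ± 0.0518 with MWCNT at 10 and 100 µg/ml, and -0.34 ± 0.0518 and -0.24 ± 0.0518 with TiO2-NB (adjusted p from 2.33e-06 to 0.00387). MICAL2, which oxidises actin, rose on 212473_s_at with every exposure of 1 h, by 0.26 to 0.33 (adjusted p from 5.93e-06 to 9.31e-05). PDLIM5, a PDZ and LIM domain protein that binds alpha-actinin, rose by 0.44 on 221994_at with MWCNT at 10 µg/ml (adjusted p = 0.00338), and on 216804_s_at changed by -0.25 with TiO2-NB at 10 µg/ml (adjusted p = 0.0244). Moesin (MSN), which ties filaments to the membrane, rose by 0.54 with MWCNT at 100 µg/ml (adjusted p = 0.00133) and by 0.33 with TiO2-NB at 100 µg/ml (adjusted p = 0.0436). ELMO2, a partner of the exchange factors that activate RAC1, rose on 220363_s_at with every exposure of 1 h, by 0.27 and 0.36 with MWCNT at 10 and 100 µg/ml and by 0.30 and 0.28 with TiO2-NB (adjusted p from 0.00184 to 0.019). The adaptor CRKL fell with every exposure of 1 h, with changes of -0.23 and -0.21 with MWCNT and -0.23 and -0.25 with TiO2-NB (adjusted p from 0.00278 to 0.0135). GIT2, another adhesion adaptor, did so on 204982_at, with changes of -0.32 and -0.23 with MWCNT and -0.25 and -0.30 with TiO2-NB (adjusted p from 0.00294 to 0.0266). The probe sets of PAK2, a kinase driven by CDC42 and RAC1, moved in opposite directions. On 208875_s_at it changed by -0.21 with MWCNT at 10 µg/ml and by -0.27 and -0.21 with TiO2-NB at 10 and 100 µg/ml (adjusted p from 0.00339 to 0.023). On 208876_s_at it rose by 0.26 and 0.25 with MWCNT at 10 and 100 µg/ml and by 0.22 with TiO2-NB at 100 µg/ml (adjusted p from 0.0204 to 0.0461).

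At 24 h limma called 0 of these with MWCNT at both doses and with TiO2-NB at 10 µg/ml, where 17, 19 and 32 of 316 had an unadjusted p under 0.05, as had 4.29%, 5.56% and 7.59% of all probe sets. With TiO2-NB at 100 µg/ml 1 probe set rose, that of COTL1 (0.27 ± 0.0616, adjusted p = 0.00778), and 15 fell, in 14 genes, 5.06% of the list beside 3.53% of all. The falls included 4 of 29 probe sets of myosins and tropomyosins, 3 of 36 of cofactors and targets of SRF, 2 each of adhesion adaptors and filament turnover, and 1 each of integrins and crosslinkers. Of 28 probe sets of nucleation limma called 0, with 2 at an unadjusted p under 0.05. Like WASL, several fell on 1 probe set only. MYO6, the myosin that walks toward the minus end, changed by -1.86 ± 0.139 on 203215_s_at (adjusted p = 1.03e-08), and by 0.06 and 0.04 on its other probe sets. PPP1R12A, the targeting subunit of myosin phosphatase, changed by -1.45 ± 0.154 on 201602_s_at (adjusted p = 9.37e-07), and by 0.07 and 0.00 on the others. PKN2, a protein kinase, changed by -1.51 ± 0.199 on 212629_s_at (adjusted p = 1.5e-05), and by -0.09 and 0.11 on the others. MYLK, the kinase of myosin light chains, changed by -0.85 ± 0.145 on its probe set 202555_s_at (adjusted p = 0.000386). Between the controls of 24 h and 1 h, 37 probe sets of the list were higher (11.7%, against 7.22% of all) and 27 lower (8.54%, against 10.9%) at 24 h. CDC42EP2, an effector of CDC42, rose by 0.60 on 209850_s_at (adjusted p = 5.87e-09), FILIP1L by 0.69 (adjusted p = 4.56e-07) and PPP1R12A by 0.65 on 201603_at (adjusted p = 4.9e-08), while CCN1 changed by -0.56 on 201289_at (adjusted p = 2.41e-08).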

How the data were processed

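The authors deposited log2 levels of probe sets on 30 arrays. Per the submitters' processing notes these come from RMA, with its version and chip definition not given in the sources used here. RMA makes the arrays' distributions alike, so a change is relative to other transcripts. An array has no read depth, and 3 arrays per group limit the precision. Levels were used as deposited. Of 22277 probe sets, 62 controls were left out and 22215 tested. Symbols come from the platform annotation, where a probe set carries 1, and all 41 measured genes matched RefSeq by gene identifier.

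In R 4.3.3 with limma 3.58.1, group means were fitted over all 30 arrays (20 residual and 3.68 prior degrees of freedom). The 19 comparisons were two-sided, with the Benjamini-Hochberg adjustment taken across every tested probe set. A check of the fit on simulated data did not cover all of them, and its outcome is not given here. Ribosomal and control probe sets were compared by exact permutation tests. The alternatives left out each array in turn, used only the compared groups, kept 1 probe set for each gene, dropped the lowest 1 in 3 of probe sets, added the 18S level as a covariate or the replicate number as a block, weighted the arrays, normalised by quantiles again, or let the variance follow intensity with robust estimation.

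The members, lists and alternatives were chosen with earlier results of these data known. Values per array are given for ACTB, for up to 12 members with the largest called change against control and up to 2 per role with the smallest p. Up to 4 other actin genes per comparison are named by smallest p among those called. COTL1, VCL and GSN were chosen after their values were seen.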

Additional observations from a re-analysis of the deposited data

Results flagged for a closer look

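The 4 differences in the response to TiO2-NB at 100 µg/ml between 24 h and 1 h are flagged because the effects at the 2 times differ by limma's test of the interaction. Their share of the members, 5.26%, was not above the 5.84% of all probe sets. PHACTR2 differed by -1.42 on 204048_s_at and by -0.70 on 204049_s_at. WASL differed by -1.57 on 205809_s_at, and by 0.06 on 205810_s_at, which was not called. CDC42 differed by -0.56 on 208727_s_at, a call lost under 2 of 19 alternatives, and its other probe sets were not called.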

How the results depend on the processing

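Of 44 called changes of single members, 13 kept their call under every alternative and 0 reversed. These include PHACTR2 on 204048_s_at and 204049_s_at and WASL on 205809_s_at with TiO2-NB at 100 µg/ml for 24 h. Of 152 counts of members called under the alternatives other than leaving out an array, 28 differed by over 1.5 times. The cause of those moves was not tested. The 1 h counts below are given for MWCNT at 10 and 100 µg/ml and TiO2-NB at 10 and 100 µg/ml, where they were 1, 4, 4 and 4.

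With only the compared groups in the fit, which leaves fewer arrays for the spread, the 1 h counts were 0, 0, 1 and 0. At 24 h the count was then 3 for TiO2-NB at 100 µg/ml against control (7), 1 against 10 µg/ml (3) and 0 for MWCNT against TiO2-NB at 100 µg/ml (6). Without the lowest 1 in 3 of probe sets the counts with MWCNT at 1 h were 5 and 8, that with TiO2-NB at 100 µg/ml was 7, and that of the MWCNT interaction was 4 (0). An intensity trend with robust variances gave 4, 11, 7 and 7 at 1 h and 4 for the MWCNT interaction. With 1 probe set per gene, MWCNT at 1 h gave 3 and 2, and the interaction 2. A second quantile normalisation and array weights gave 2 and 1 for the interaction. With the 18S covariate, MWCNT at 100 µg/ml for 1 h gave 0 and TiO2-NB at 10 and 100 µg/ml for 1 h gave 1 and 1. It gave 2 for TiO2-NB at 10 µg/ml for 24 h (1) and 2 for MWCNT against TiO2-NB at 10 µg/ml for 24 h (0).

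The main fit did not treat the replicate numbers as pairs. In 0 of 19 comparisons did every same-numbered pair correlate over 0.1, which cannot show that the samples are unpaired. For TiO2-NB at 10 µg/ml for 24 h, 2 of 3 pairs did so against control, as did 2 of 3 against MWCNT. With the replicate number as a block, TiO2-NB at 10 µg/ml for 1 h gave 2 and MWCNT against TiO2-NB at 10 µg/ml for 24 h gave 1. TiO2-NB at 100 µg/ml for 24 h gave 5 with the block.

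Leaving out each array gave 0 to 4, 0 to 5, 0 to 5 and 1 to 7 at 1 h. At 24 h it gave 0 to 0 for MWCNT at each dose, 0 to 1 for TiO2-NB at 10 µg/ml, 3 to 6 at 100 µg/ml, 2 to 4 for 100 against 10 µg/ml TiO2-NB and 3 to 4 for MWCNT against TiO2-NB at 100 µg/ml. The interactions gave 0 to 1 for MWCNT and 3 to 5 for TiO2-NB, and the control times 6 to 9. The other dose and particle comparisons gave 0 throughout.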
